A study of Bos taurus with 15 samples.

Results

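The genes described here are the lipases that release fatty acids from stored triacylglycerol, with the proteins that switch the first of them on or off: PNPLA2, PNPLA3, LIPE, MGLL, ABHD5, ABHD6 and G0S2. They were taken by name from the gene tables of the study, and 6 of the 7 were found among 13896 genes; PNPLA3 was not analysed here. The tissue was subcutaneous fat of primiparous Prim Holstein cows, which the study took from the dewlap of fasted cows. One group, -4 wkpp, was sampled a month before calving, before the diet experiment, and wkpp stands for weeks peripartum. The others were fed a low-energy (LE) or a high-energy (HE) diet from then on, and were sampled after calving at 1 wkpp (LE 1 wkpp and HE 1 wkpp) and 16 wkpp (LE 16 wkpp and HE 16 wkpp). Each of the 5 groups had 3 libraries, 15 in all. The study names its cows by severe or moderate negative energy balance and the labels name them by diet, which is followed here. In number and week, the severe samples of the study's sample list match the LE titles, and the moderate ones the HE titles. Taken so, each comparison of LE with HE also sets severe against moderate deficit, and diet and deficit cannot be told apart. The list gives no energy state for -4 wkpp. The cows sequenced had the most extreme energy balance at 1 wkpp, so the groups are not a random sample of either diet. The study took biopsies from each cow at all 3 weeks, so the libraries of different weeks may come from the same cows. The tables do not tie a library to a cow, and the weeks were fitted as independent groups.

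Triacylglycerol in a fat droplet is cut down step by step. PNPLA2 (adipose triglyceride lipase, ATGL) removes the first fatty acid, ABHD5 (CGI-58) is its co-activator at the droplet surface, and G0S2 binds and inhibits it. LIPE (hormone-sensitive lipase) acts mainly on the diacylglycerol that remains, and MGLL (monoacylglycerol lipase) splits the last fatty acid from glycerol. ABHD6 also hydrolyses monoacylglycerol. In dairy cows this pathway supplies the non-esterified fatty acids that rise in blood around calving, and adrenergic signals and insulin control it largely through phosphorylation, which RNA does not show.

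Reads had been counted once on exons and once over the whole gene, introns included. Both are given below as normalized counts, that is, reads divided by the library's size factor, and levels of different genes are not compared. A gene was called when the exonic and the whole gene counts each gave an adjusted p below 0.01 by limma voom and pointed the same way. Libraries held 8433307 to 15317277 exonic reads in the -4 wkpp and LE groups, and 2003334 to 7471066 in the HE groups. The study also lists a lower share of uniquely mapped reads for every moderate deficit sample, which match HE, than for any other. Added RNA spike-ins took from 0.266 to 2.34% of gene and spike-in reads in the -4 wkpp and LE libraries, and from 3.94 to 32.8% in the HE libraries. The summed count of 12 adipocyte markers was 88343 to 101287 at -4 wkpp, 90214 to 118906 in LE 1 wkpp and 67444 to 72354 in LE 16 wkpp. It was 20206 to 84718 in HE 1 wkpp and 14512 to 57241 in HE 16 wkpp, below the LE group of the same week without overlap. The 9 skeletal muscle markers summed to 97.8 to 365 in the -4 wkpp and LE libraries, and to 1182 to 4110 in the HE libraries. The 4 fibroblast markers summed to 565849 to 632345 at -4 wkpp, 109479 to 238415 in LE 1 wkpp, 63949 to 82470 in HE 1 wkpp, 364212 to 464513 in LE 16 wkpp and 65021 to 121229 in HE 16 wkpp. They were thus lower at 1 wkpp than before calving in both diets, and lower in HE than in LE at both weeks. The 5 endothelial markers summed to 19259 to 23431 at -4 wkpp, 29468 to 36583 in LE 1 wkpp, 29708 to 63267 in HE 1 wkpp, 22204 to 25383 in LE 16 wkpp and 23703 to 34023 in HE 16 wkpp. The 4 macrophage markers that were read summed to 4845 to 6902, 7460 to 11393, 1959 to 6859, 10308 to 13489 and 1909 to 2204 in the same order. Both were thus higher in LE 1 wkpp than at -4 wkpp without overlap. The endothelial markers were also higher in LE 1 wkpp than in LE 16 wkpp. The lymphocyte markers summed to 1532 to 1829, 722 to 2153, 346 to 1043, 1093 to 1964 and 372 to 496 in that order, those of keratinocytes and hair follicle to 531 to 1226, 313 to 793, 60.5 to 658, 137 to 271 and 100 to 135, and those of erythrocytes to 12.2 to 334 over all libraries. The lymphocyte markers were thus lower in HE 1 wkpp than at -4 wkpp, and lower in HE 16 wkpp than in LE 16 wkpp. No marker that was read stood at 0 in every library, while ADIPOQ and PLIN4 were not analysed here. The part of depth, mapping, spike-in share and these markers in the differences given below was not tested. In bulk tissue, fewer adipocytes and less RNA per adipocyte cannot be told apart.

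None of the 6 members was called in any of the 6 comparisons. Under limma voom, 2 members had an unadjusted p below 0.05 in both analyses for -4 wkpp vs HE 1 wkpp, 2 for -4 wkpp vs LE 1 wkpp, 3 for LE 1 wkpp vs LE 16 wkpp and 0 for the others. These were PNPLA2 and LIPE, then LIPE and MGLL, then LIPE, MGLL and ABHD6. Limma-trend, run without weights, called 0 members and gave the same counts. Of all genes, 25.3% had such a p for -4 wkpp vs HE 1 wkpp, 9.59% for -4 wkpp vs LE 1 wkpp, 4.57% for LE 1 wkpp vs LE 16 wkpp, 8.01% for HE 1 wkpp vs HE 16 wkpp, 18.3% for LE 1 wkpp vs HE 1 wkpp and 26.1% for LE 16 wkpp vs HE 16 wkpp. Among all genes, 1.81% were called for -4 wkpp vs HE 1 wkpp, 0.0378% for -4 wkpp vs LE 1 wkpp and 3.77% for LE 16 wkpp vs HE 16 wkpp, and 0% in the other comparisons. These counts rested on single libraries: between LE 1 wkpp and HE 1 wkpp the 0 genes called became 449 without HE 1 wkpp library 1 (312 with all 15 libraries in one fit), and between -4 wkpp and LE 1 wkpp the 4 genes became 84 without LE 1 wkpp library 2, with no member among them. With 3 libraries a group, a member outside the threshold is not shown to be the same in both groups, so the 95% interval of each difference is plotted for every member and comparison.

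**Figure D1:**
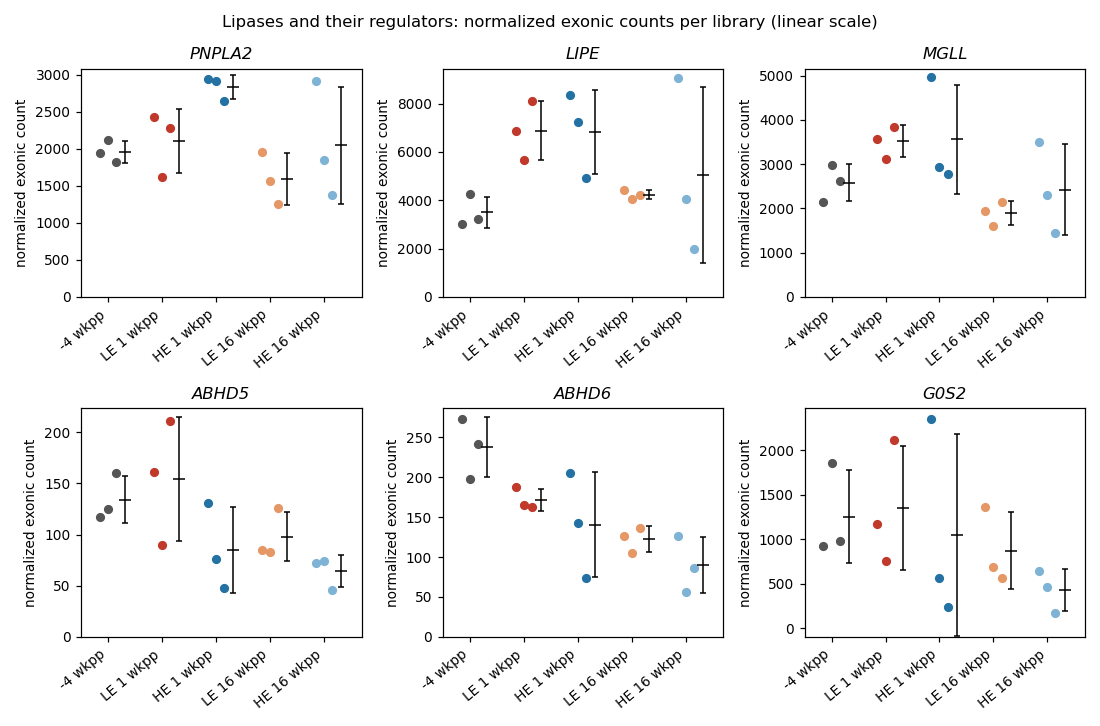
Normalized exonic counts (vertical axes, linear) of the 6 genes in each of the 15 libraries (points, 3 per group, libraries 1 to 3 from left to right), with the mean and SD of each group (black). LIPE lay at 3017 to 4239 before calving and at 4922 to 8333 in the 6 libraries of 1 wkpp, and library 1 of HE 16 wkpp, at 9063, stood above all others.

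**Figure D2:**
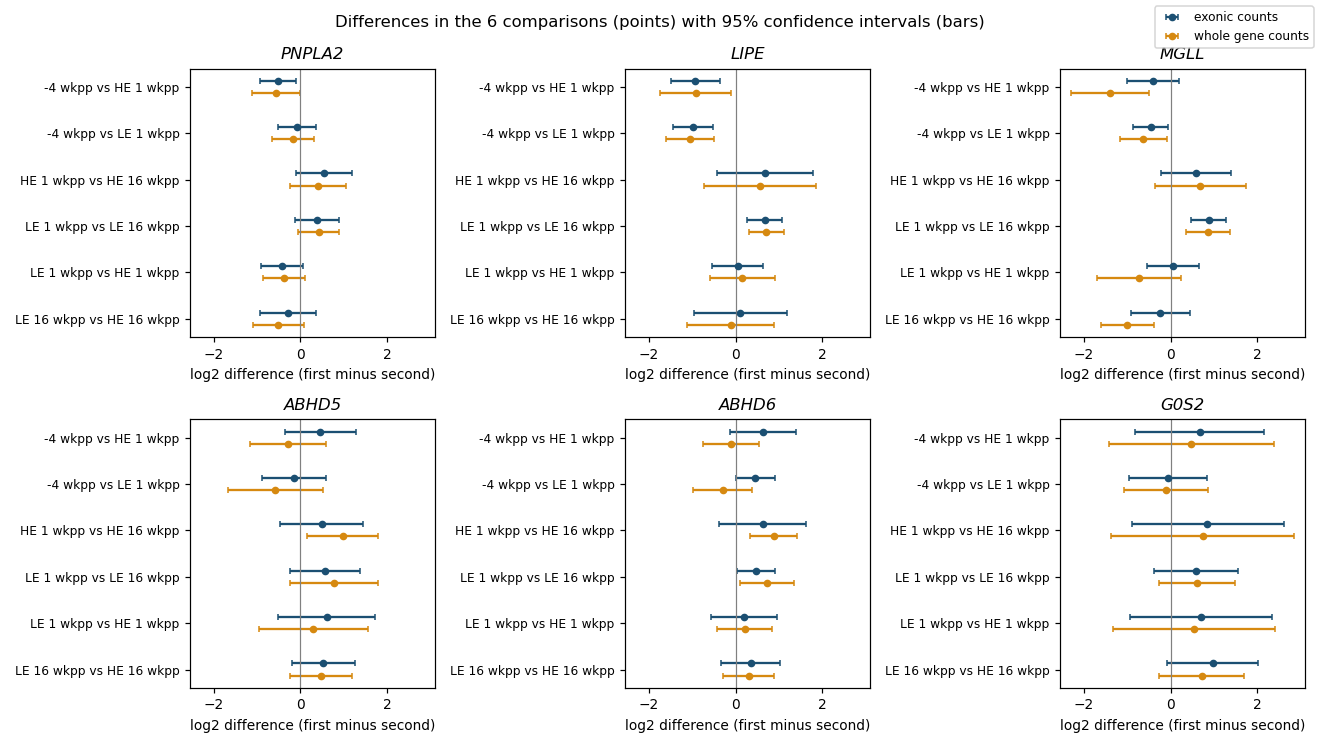
Log2 differences (horizontal axes, first minus second group) of each gene in the 6 comparisons, from exonic counts (blue) and whole gene counts (orange), with 95% intervals of the limma fit as bars. All 6 genes lay to the right of 0 between 1 and 16 wkpp in both diets, and MGLL is where the colours part most, at -0.41 against -1.39 between -4 wkpp and HE 1 wkpp.

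LIPE, the hormone-sensitive lipase, came nearest to a call between late pregnancy and the first week of lactation. Its normalized exonic counts were 3017, 4239 and 3234 at -4 wkpp, 6883, 5655 and 8096 in LE 1 wkpp, and 8333, 7242 and 4922 in HE 1 wkpp. Every library of 1 wkpp held more than every library of -4 wkpp. Exonic counts alone did not overlap for 46.9% of all genes between -4 wkpp and HE 1 wkpp, and for 19.8% between -4 wkpp and LE 1 wkpp. The means were 3497 ± 652 (SD, n = 3) before calving, 6878 ± 1221 (SD, n = 3) in LE 1 wkpp and 6832 ± 1742 (SD, n = 3) in HE 1 wkpp. The exonic log2 difference of -4 wkpp minus LE 1 wkpp was -0.98 with an SE of 0.20 (95% interval -1.44 to -0.52, adjusted p = 0.0558 by limma), a level 1.97-fold higher after calving. That of -4 wkpp minus HE 1 wkpp was -0.93 with an SE of 0.26 (95% interval -1.50 to -0.36, adjusted p = 0.0199), or 1.91-fold. Whole gene counts gave -1.05 (adjusted p = 0.126) and -0.92 (adjusted p = 0.155). They separated the LE 1 wkpp libraries from those before calving, while those of HE 1 wkpp, from 5291 to 10845, overlapped the highest library of -4 wkpp, at 5690. Both comparisons use the same 3 libraries of -4 wkpp, so they are not independent of each other. Over the alternatives that left out no library the exonic adjusted p of limma ran from 0.00633 (total counts, whole gene 0.0532) to 0.0742 (all 15 libraries in one fit) for HE, and from 0.0389 to 0.243 in the same settings for LE. With 1 library left out it ran from 0.00976 to 0.0895 for HE and from 0.0143 to 0.246 for LE, both highest without -4 wkpp library 1. Scaling by total counts moved the median exonic log2 difference of all genes from 0.04 to -0.16 for HE, and from -0.03 to -0.18 for LE.

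PNPLA2, the enzyme of the first step, differed less. Its exonic counts were 1940, 2122 and 1829 at -4 wkpp, 2428, 1621 and 2280 in LE 1 wkpp, and 2944, 2916 and 2654 in HE 1 wkpp. The 3 libraries of HE 1 wkpp lay close together and above those of both other groups, whereas the LE 1 wkpp libraries spanned the range before calving. The exonic log2 difference of -4 wkpp minus HE 1 wkpp was -0.52 with an SE of 0.19 (adjusted p = 0.0603), and that of -4 wkpp minus LE 1 wkpp was -0.09 with an SE of 0.19 (adjusted p = 0.882). LE 1 wkpp minus HE 1 wkpp gave -0.43 with an SE of 0.22 (adjusted p = 0.206). For both HE comparisons the groups did not overlap in either analysis. Such separation was common: it was seen, in both analyses, in 31.2% of all genes between -4 wkpp and HE 1 wkpp, in 26.1% between LE 1 wkpp and HE 1 wkpp, and in 11.5% between -4 wkpp and LE 1 wkpp.

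The regulators of PNPLA2 overlapped between -4 wkpp and either group of 1 wkpp. The co-activator ABHD5 had exonic counts of 117, 125 and 160 at -4 wkpp, 161, 90.1 and 211 in LE 1 wkpp, and 131, 75.7 and 47.8 in HE 1 wkpp. These rest on few reads in the HE libraries, which held 13 to 126 exonic reads of ABHD5. The groups overlapped, and the log2 differences of -4 wkpp minus LE 1 wkpp and minus HE 1 wkpp were -0.14 with an SE of 0.32 and 0.46 with an SE of 0.37. Over the whole gene they were -0.59 (SE 0.47) and -0.28 (SE 0.37), so the sign against HE 1 wkpp differed between the analyses. The exonic 0.46 became 1.09 without HE 1 wkpp library 1 and 0.24 without library 3. The inhibitor G0S2 had 928, 1857 and 983 before calving, 1178, 759 and 2119 in LE 1 wkpp, and 2349, 567 and 235 in HE 1 wkpp. Its level within HE 1 wkpp thus ran from 235 to 2349, with the highest value in library 1, the deepest of that group at 6976728 exonic reads and the one with the least spike-in at 3.94%. The exonic difference of -4 wkpp minus HE 1 wkpp was 0.67 with an SE of 0.67. Without library 1 it was 1.69 (adjusted p = 0.0165 by limma), and the whole gene difference was 1.61 (adjusted p = 0.108). The exonic difference was -0.01 without library 3, so its size and sign rested on single libraries.

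The monoacylglycerol lipases differed in how the 2 counts behaved. MGLL had exonic counts of 2146, 2987 and 2617 at -4 wkpp, 3576, 3127 and 3842 in LE 1 wkpp, and 4982, 2937 and 2779 in HE 1 wkpp. Its LE 1 wkpp libraries stood above those of -4 wkpp in both analyses, with log2 differences of -0.45 (SE 0.18, adjusted p = 0.281) in exons and -0.63 (SE 0.23, adjusted p = 0.374) over the gene. For -4 wkpp minus HE 1 wkpp the exonic difference was -0.41 (SE 0.27, adjusted p = 0.276), and the whole gene difference was -1.39 (SE 0.38, adjusted p = 0.0677), a 2.62-fold higher whole gene level after calving. Without HE 1 wkpp library 1, whose whole gene count was 24503, the whole gene difference was -0.95 (adjusted p = 0.0246) and the exonic difference -0.12. ABHD6 had 273, 198 and 242 exonic counts at -4 wkpp and 188, 165 and 163 in LE 1 wkpp, lower in each of the latter, with a log2 difference of 0.46 (SE 0.20, adjusted p = 0.344). Its whole gene difference had the other sign, at -0.30 (SE 0.30). In HE 1 wkpp it had 205, 143 and 73.5, which overlapped -4 wkpp, with differences of 0.64 (SE 0.34, adjusted p = 0.181) in exons and -0.10 (SE 0.28) over the gene. The exonic value was 1.16 without HE 1 wkpp library 1 and 0.38 without library 3.

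Between 1 and 16 wkpp all 6 members had a positive log2 difference, that is, a higher mean at 1 wkpp, in both diets and in both analyses. Of all genes, 48.7% had a positive exonic difference in LE and 49.5% in HE. The median exonic difference of the members was 0.58 in LE and 0.61 in HE, against -0.01 for all genes in each. No member and no other gene was called in either comparison. In LE, the adipocyte markers were also higher at 1 than at 16 wkpp without overlap, at 90214 to 118906 against 67444 to 72354. So were the endothelial markers, at 29468 to 36583 against 22204 to 25383, and those of keratinocytes and hair follicle, at 313 to 793 against 137 to 271, while the fibroblast markers were lower, at 109479 to 238415 against 364212 to 464513. In HE the ranges of these 4 lists overlapped between the weeks. The part of these lists in the result was not tested. The members are linked across libraries, as shown further on, so the 6 signs are not 6 separate observations. In HE, ABHD5 and G0S2 each had an exonic difference of -0.08 when HE 1 wkpp library 1 was left out, and G0S2 had -0.24 over the whole gene. In the same fit PNPLA2 had 0.51, LIPE 0.53, MGLL 0.34 and ABHD6 0.18 in exons, so the median of 0.61 rested partly on that library. In LE no left-out library turned a sign in either analysis.

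The values behind this were clearest for MGLL and LIPE in LE. MGLL had exonic counts of 3576, 3127 and 3842 in LE 1 wkpp and 1936, 1599 and 2139 in LE 16 wkpp, with no overlap. Its difference was 0.88 with an SE of 0.17 (95% interval 0.48 to 1.28), a 1.84-fold higher level at 1 wkpp, but the adjusted p was 0.517 in a comparison that called no gene. LIPE had 4421, 4059 and 4221 in LE 16 wkpp, all below the lowest LE 1 wkpp library at 5655, with a difference of 0.67 and an SE of 0.18 (95% interval 0.26 to 1.08, adjusted p = 0.676). ABHD6 had 127, 105 and 137 in LE 16 wkpp against 163 to 188 in LE 1 wkpp, a difference of 0.47 with an SE of 0.19. For MGLL and LIPE the groups did not overlap in either analysis, which held for 7.06% of all genes. PNPLA2, at 1962, 1562 and 1258 in LE 16 wkpp, ABHD5, at 85.2, 83.2 and 126, and G0S2, at 1368, 684 and 570, overlapped their LE 1 wkpp range, with differences of 0.39 (SE 0.22), 0.56 (SE 0.35) and 0.59 (SE 0.42). With 1 library left out these ran from 0.24 to 0.57, 0.32 to 0.92 and 0.20 to 0.97.

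In HE the same genes were spread too widely at 16 wkpp to separate. LIPE had exonic counts of 9063, 4061 and 1969 in HE 16 wkpp, so that its library 1 exceeded every library of HE 1 wkpp and its library 3 lay below every other library of the study. MGLL had 3503, 2301 and 1454, and PNPLA2 had 2923, 1851 and 1378. Library 1 of HE 16 wkpp was the deepest of its group at 7471066 exonic reads and had 6.56% spike-in reads, against 16.0 and 16.5% in the other two. The exonic differences of HE 1 wkpp minus HE 16 wkpp were 0.69 (SE 0.49) for LIPE, 0.59 (SE 0.36) for MGLL and 0.54 (SE 0.29) for PNPLA2. Without HE 16 wkpp library 3 they were 0.12, 0.24 and 0.27, and without its library 1 they were 1.23, 0.91 and 0.82. Exonic counts in HE 16 wkpp were 72.4, 74.5 and 46.0 for ABHD5, 127, 56.6 and 86.7 for ABHD6, and 647, 468 and 176 for G0S2, and each gene's range overlapped that of HE 1 wkpp. Groups that did not overlap in either analysis were seen for 0 members and 12.0% of all genes. Over the whole gene, ABHD5 and ABHD6 did separate, at 0.98 (SE 0.35, adjusted p = 0.38) and 0.88 (SE 0.23, adjusted p = 0.313), as did 9.21% of all genes in whole gene counts with the higher level in HE 1 wkpp. The change from 1 to 16 wkpp was then set against itself between the diets in a fit of 12 libraries. The exonic log2 difference of the changes, LE minus HE, ran from -0.31 for G0S2 (95% interval -2.47 to 1.84) to 0.31 for MGLL (95% interval -0.62 to 1.23), with none called. No gene was called there, and 2.82% of all genes had an unadjusted p below 0.05 in both analyses.

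Between the diets at the same week, LIPE and MGLL had mean exonic differences near 0 at 1 wkpp. The differences of LE 1 wkpp minus HE 1 wkpp were 0.05 for LIPE (95% interval -0.54 to 0.64) and 0.05 for MGLL (95% interval -0.54 to 0.65). Over the whole gene MGLL gave -0.73 (SE 0.41, 95% interval -1.70 to 0.24, adjusted p = 0.365), a 1.66-fold higher level in HE, with 7152, 6189 and 10536 in LE 1 wkpp and 24503, 11312 and 9218 in HE 1 wkpp. These ranges overlapped, and without library 1 of HE 1 wkpp the difference was -0.34. ABHD5, ABHD6 and G0S2 had positive differences of 0.61, 0.19 and 0.70, each with an interval that spans 0. Without HE 1 wkpp library 1 they were 1.23, 0.71 and 1.74, the last with a whole gene difference of 1.72 (adjusted p = 0.0446), and without library 3 that of G0S2 was 0.07. At 16 wkpp G0S2 gave 0.97 for LE minus HE (95% interval -0.08 to 2.02, adjusted p = 0.158), with 1368, 684 and 570 in LE and 647, 468 and 176 in HE. Leaving out 1 library moved it between 0.51 (without HE 16 wkpp library 3) and 1.48 (without HE 16 wkpp library 1). ABHD5 was lower in every HE 16 wkpp library than in every LE 16 wkpp library in both analyses, with 0.53 (SE 0.32, adjusted p = 0.252). Of all genes, 31.0% were separated in this way between LE 16 wkpp and HE 16 wkpp. PNPLA2 lay on the other side, with -0.29 (SE 0.28), but gave -0.03 without HE 16 wkpp library 1 and -0.54 without library 3. LIPE gave 0.11 (SE 0.48).

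MGLL stood out in where its reads lay. The share of its gene reads outside exons was 70.3 to 79.1% in HE 1 wkpp and 68.1 to 70.8% in HE 16 wkpp, and it was 40.7 to 61.1% at -4 wkpp, 47.1 to 66.7% in LE 1 wkpp and 48.9 to 65.5% in LE 16 wkpp. All 6 HE libraries were above all 9 others. Over all genes together the share was not higher in HE, at 39.5 to 52.2% against 42.6 to 58.5%. Among 8914 genes with at least 20 gene reads in every library, 35 (0.393%) had a share that was higher in all HE libraries than in all others. Accordingly, LE 16 wkpp minus HE 16 wkpp gave a whole gene level of MGLL 2-fold higher in HE (SE 0.27 on the log2 scale, adjusted p = 0.0417) but a log2 difference of -0.24 in exons (SE 0.30, adjusted p = 0.595), and whole gene counts of 3828, 4564 and 4161 in LE 16 wkpp stood against 11910, 8624 and 5689 in HE 16 wkpp. This share was examined after the values of MGLL had been seen. The strand setting of the counting is not given in the sources used here, so reads of an antisense or unlisted transcript within the gene cannot be told apart from unspliced MGLL.

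None of the other members had a share that separated all HE libraries from all others. Within 1 wkpp, however, the share of PNPLA2 was lower in every HE library, at 1.77 to 8.1%, than in every LE library, at 8.53 to 10.1%, which is the opposite direction to MGLL. Of all genes, 24.1% had a share that was higher in LE 1 wkpp than in HE 1 wkpp without overlap, and PNPLA2 had as few as 13 and 39 reads outside exons in HE 1 wkpp libraries. The share of ABHD5 was higher in HE 1 wkpp, at 80.3 to 90.3%, than at -4 wkpp, at 57 to 80.2%, or in HE 16 wkpp, at 71 to 78.1%, as were 7.17 and 12.2% of all genes in these comparisons. Over all libraries G0S2 had 0.284 to 4.21% of its reads outside exons and PNPLA2 1.77 to 11.2%, LIPE 8.41 to 23.7%, ABHD6 56.2 to 88.4% and ABHD5 57.0 to 90.3%. For LIPE the HE libraries, at 8.41 to 21%, overlapped the others, at 15.7 to 23.7%. Whole gene values of ABHD5 and ABHD6 therefore rest mostly on reads outside exons, while those of G0S2, PNPLA2 and LIPE rest mostly on the exonic reads.

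**Figure D3:**
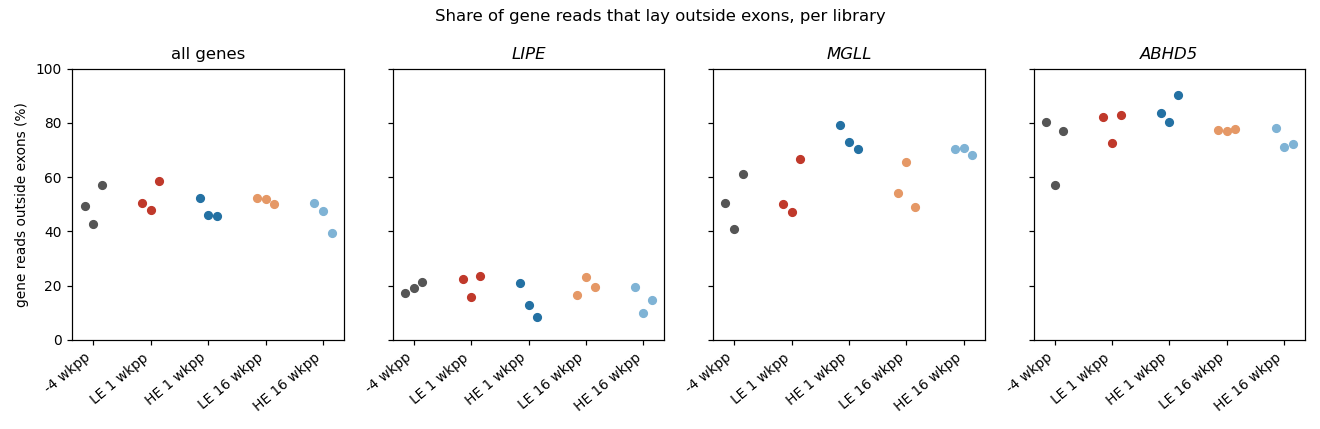
Percent of gene reads that lay outside exons (vertical axes, 0 to 100%) in each library (points, 3 per group) for all genes together and for LIPE, MGLL and ABHD5. Only in the MGLL panel do all 6 HE points, at 68.1 to 79.1%, lie above all 9 others, at 40.7 to 66.7%.

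Across the 15 libraries the exonic counts of some members moved more closely together than those of others. LIPE and MGLL had a Pearson r of 0.84 on log2 counts, and PNPLA2 had 0.74 with each of them. ABHD5 and G0S2 had 0.83, ABHD5 and ABHD6 0.73, and ABHD6 and G0S2 0.70, while PNPLA2 had 0.06 with its co-activator ABHD5 and 0.32 with its inhibitor G0S2. Between these genes MGLL had 0.58 with G0S2, 0.49 with ABHD5 and 0.41 with ABHD6, and LIPE had 0.48 with G0S2. These values share the libraries, their depth and the 5 groups, and are given as a description. Among 8016 genes whose exonic counts averaged 100 or more, those nearest to LIPE were FAM101A (r = 0.89), TAF4B (0.85) and KLHL25 (0.84), and those nearest to PNPLA2 were TAF4B (0.83), PELO (0.81) and FBXO10 (0.80). TAF4B was thus near both. EPAS1, which encodes the hypoxia-inducible factor HIF-2alpha, was nearest to MGLL (0.89), before ZNF383 and TTC13 (0.85 each). ABHD5 was nearest to C20H5orf34 (0.92), FAM213A (0.91) and ATM (0.91), ABHD6 to FGFRL1 (0.91), S100B (0.87) and PRR5L (0.86), and G0S2 to ASS1 (0.88), F8 (0.88) and SIK2 (0.86).

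The partners of the lipases, that is, droplet coat proteins, glycerol and fatty acid carriers, receptors and cAMP signalling genes, gave some calls. Of 30 partners found, 27 were tested between -4 wkpp and HE 1 wkpp. Of these, 3 were called, all higher before calving, where 1.03% of all genes were called in that direction. Their median exonic difference was 0.46, against 0.04 for all genes. CIDEC, which lets fat droplets grow by fusion, had exonic counts of 7861, 7353 and 6480 at -4 wkpp and of 1168, 1643 and 1463 in HE 1 wkpp, a log2 difference of 2.37 with an SE of 0.21 (adjusted p = 0.000115 by limma). CIDEA, of the same family, had 1277, 798 and 1641 against 247, 105 and 136, with 2.79 and an SE of 0.39 (adjusted p = 0.000813). AQP7, the channel through which glycerol leaves the adipocyte, had 2446, 2624 and 1983 against 261, 646 and 658, with 2.38 and an SE of 0.34 (adjusted p = 0.000873).

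Between -4 wkpp and LE 1 wkpp, CIDEA was the only partner called of 27 tested, where 0.0378% of all genes were called. It had 103, 116 and 163 in LE 1 wkpp, with a log2 difference of 3.26 and an SE of 0.32 (adjusted p = 0.00412). AQP7 had 650, 1187 and 682 there (1.53, SE 0.25, adjusted p = 0.0225) and CIDEC 5168, 6283 and 3685. Between 1 and 16 wkpp, 0 partners were called in either diet, and limma-trend called none of the genes tested. Unadjusted p-values below 0.05 in both analyses were seen for 6 in LE, all higher at 1 wkpp, and for 1 in HE, lower at 1 wkpp. Of all genes, 4.57% had such a p in LE and 8.01% in HE, in either direction. Of the 27 tested between LE 1 wkpp and HE 1 wkpp, 0 were called and 6 had such a p, as did 18.3% of all genes. Of the 26 tested between LE 16 wkpp and HE 16 wkpp, ADCY6 was called, higher in HE as were 2.66% of all genes. This adenylyl cyclase, which makes cAMP, had 736, 784 and 824 in LE 16 wkpp and 2824, 2334 and 2526 in HE 16 wkpp, a difference of -1.70 with an SE of 0.15 (adjusted p = 0.000542).

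Of 22 other lipases and lipid hydrolases found, 19 were tested in each comparison. LPL, which hydrolyses the triacylglycerol of lipoproteins in blood, was called between -4 wkpp and HE 1 wkpp, as were 1.03% of all genes in that direction. Its exonic counts were 24248, 12651 and 24526 at -4 wkpp and 1110, 632 and 548 in HE 1 wkpp, a 26.3-fold lower level after calving (log2 difference 4.72, SE 0.34, adjusted p = 4.48e-05). In LE 1 wkpp it had 1178, 6182 and 1299, with 3.22 and an SE of 0.62 (adjusted p = 0.0406), which is not a call. PNPLA6, the neuropathy target esterase that acts on phospholipids, was called between LE 16 wkpp and HE 16 wkpp, higher in HE as were 2.66% of all genes. It had 562, 479 and 499 against 1271, 1062 and 1538 (-1.31, SE 0.18, adjusted p = 0.00153). No other gene of this list was called in any comparison. In the 4 comparisons with 0 calls, limma-trend called 0 as well, and an unadjusted p below 0.05 in both analyses was seen for 3 genes higher and 3 lower at -4 wkpp than in LE 1 wkpp, 1 gene from HE 1 to HE 16 wkpp, 1 from LE 1 to LE 16 wkpp, and 2 higher and 2 lower in LE 1 than in HE 1 wkpp. Such a p was seen for 9.59, 8.01, 4.57 and 18.3% of all genes in these comparisons, in that order. CIDEA, CIDEC, AQP7 and LPL also stand on the adipocyte marker list and enter its sum. That sum was 88343 to 101287 at -4 wkpp, 20206 to 84718 in HE 1 wkpp and 90214 to 118906 in LE 1 wkpp. In LE 1 wkpp the exonic levels of CIDEA, LPL, AQP7 and CIDEC were 9.6, 9.32, 2.89 and 1.46-fold lower than at -4 wkpp. The part of adipocyte content in these differences was not tested. The skeletal muscle markers were higher in HE 16 wkpp (1703 to 3805) than in LE 16 wkpp (241 to 345), as were ADCY6 and PNPLA6. They were 97.8 to 365 at -4 wkpp and 1182 to 4110 in HE 1 wkpp. There PNPLA6 had 494 to 638 against 1304 to 2150, but ADCY6 overlapped, at 1448 to 1853 against 1797 to 2202. Adipocyte, fibroblast, macrophage, lymphocyte and keratinocyte markers were lower in HE 16 wkpp than in LE 16 wkpp without overlap, and erythrocyte markers higher. The part of any of these lists in those calls was not tested.

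Most of these calls were lost when single libraries were left out, while the differences stayed about as large: 2.26 to 2.47 for CIDEC, 2.53 to 3.35 for CIDEA, 1.88 to 2.64 for AQP7 and 4.51 to 5.09 for LPL in exons between -4 wkpp and HE 1 wkpp, and -1.44 to -1.18 for PNPLA6. Calls over all genes fell alike, from 189 to 1 or 2 without a library of -4 wkpp, to 4 and 19 without library 2 and 3 of HE 1 wkpp, and from 383 to between 34 and 122 without a library of LE 16 wkpp or HE 16 wkpp. Between -4 wkpp and HE 1 wkpp they numbered 225 without library 1 of HE 1 wkpp. ADCY6 was called with each library left out. CIDEC lost its call (whole gene adjusted p of 0.0143 to 0.0564) without any one library of -4 wkpp or without library 2 or 3 of HE 1 wkpp. CIDEA lost that against HE 1 wkpp without the same 5 libraries (0.0252 to 0.0637), and AQP7 without each of the 6 libraries (0.0108 to 0.0694). LPL lost it without any library of -4 wkpp or without library 2 of HE 1 wkpp (0.0117 to 0.0459), and PNPLA6 without each of its 6 libraries (0.0182 to 0.0315). Against LE 1 wkpp, CIDEA was still called without LE 1 wkpp library 2 and lost its call without each of the other 5 libraries, while its exonic difference stayed between 3.03 and 3.56.

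**Figure D4:**
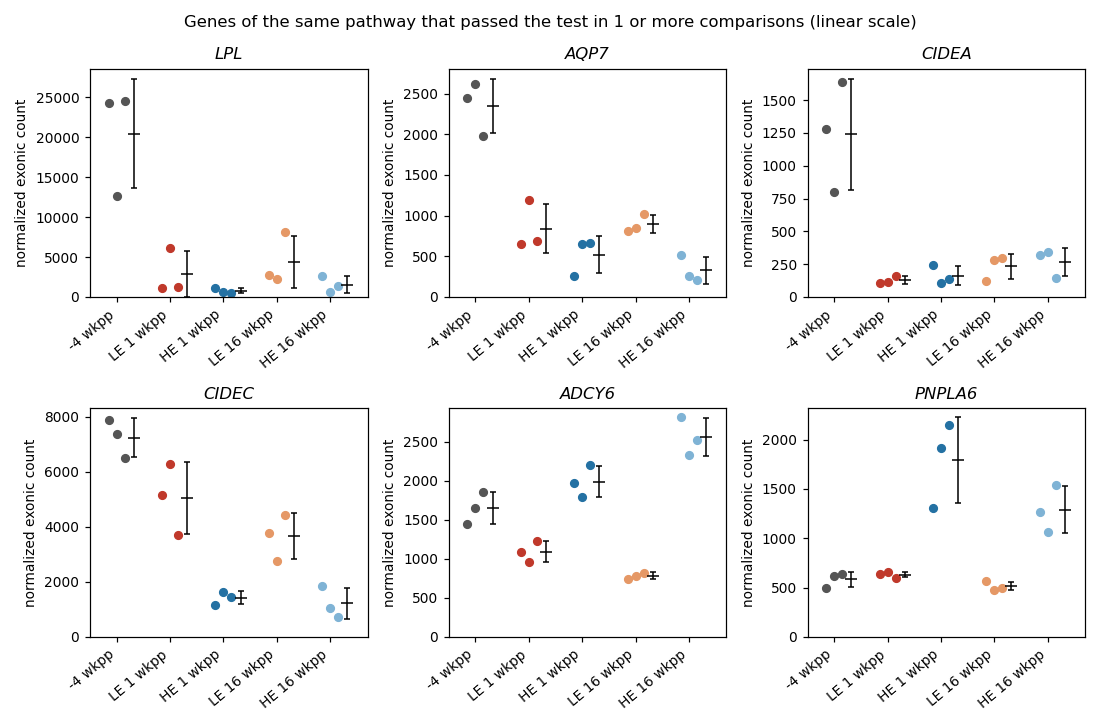
Normalized exonic counts (vertical axes, linear) of the 6 other genes of lipid turnover that were called in at least 1 comparison, in each library (points, 3 per group), with the mean and SD of each group (black). LPL ran from 12651 to 24526 before calving and at 632 or less in 2 libraries of HE 1 wkpp, and ADCY6 ran highest in HE 16 wkpp, at 2334 to 2824.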

How the data were processed

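RNA from fat of 3 cows of each energy balance group was depleted of ribosomal RNA and sequenced as stranded libraries. The authors trimmed reads with Cutadapt 1.3 after bcl2fastq 2.15.0, aligned them to bosTau8 with TopHat2, counted them with HTSeq on exons and on whole genes, and compared groups with DESeq2. The 6 deposited tables hold, per gene, the mean normalized count over the 6 libraries of a comparison (a signal averaged over both groups, per the file headers), with the authors' fold changes, standard errors and p-values, which were not used. The tables used here have no per-sample columns.

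Because each mean is a sum of whole reads divided by size factors, printed to 15 digits, and each library enters at least 2 tables, the reads of the 15 libraries were solved by lattice reduction (sympy 1.14.0). A library belongs to the group whose tables it enters, and no measured outcome was used for this. Of 13896 genes, 13891 were solved from exonic and 13889 from whole gene means to a relative residual under 1e-14. In 88 of 88 spike-ins solved in both, the 2 solutions gave identical reads in all 15 libraries, and size factors recomputed from the reads differed from those of the tables by at most 0.0759%. Recovered libraries carry no replicate number: they are numbered within a group from the largest size factor down. The study sequenced 3 cows per group, so p-values measure the spread between cows of a group.

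Counts were tested with limma 3.58.1 (voom, R 4.3.3), 6 libraries per comparison, median-of-ratios size factors, genes with a mean normalized count of at least 10, two-sided, Benjamini-Hochberg over all genes tested. Called means an adjusted p below 0.01 on exonic and on whole gene counts, in 1 direction. Printed counts use size factors over all 15 libraries. Both scripts for recovery and testing were tested on simulated data. Alternatives were other scalings, no filter, limma-trend with a pseudocount of 1, all 15 libraries in one fit, other thresholds and each library left out. Named were all members, any called gene of 2 lists (partners and other hydrolases, at most 10 per list) and the 3 genes nearest to each member. The members and lists were chosen with earlier results of these data known. Sample titles carry a code, m1 for -4 wkpp, HE 1 wkpp and LE 16 wkpp and m2 for the others, whose meaning is not given in the sources used here; the code cannot be told apart from the group except between -4 wkpp and HE 1 wkpp, which share it.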

Additional observations from a re-analysis of the deposited data

How the results depend on the processing

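No member was called under any alternative: neither under total-count or upper-quartile scaling, without the filter, with limma-trend, with all 15 libraries in one fit, on exonic or whole gene counts alone, at an adjusted p below 0.05 in both, nor with a library left out. Of 42 exonic log2 differences of the members (6 comparisons and the difference between the diets), 3 changed sign in a setting other than a left-out library. Under total counts LIPE and MGLL gave -0.01 each for LE 1 wkpp minus HE 1 wkpp and LIPE gave 0.02 for the difference between the diets, where limma-trend gave 0.01; the cause was not tested.

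Leaving out a library turned the sign of 16. The ranges for -4 wkpp minus LE 1 wkpp were -0.27 to 0.03 for PNPLA2, -0.49 to 0.11 for ABHD5 and -0.41 to 0.33 for G0S2, and for -4 wkpp minus HE 1 wkpp -0.01 to 1.69 for G0S2. For HE 1 wkpp minus HE 16 wkpp they were -0.08 to 0.72 for ABHD5 and -0.08 to 1.52 for G0S2. For LE 1 wkpp minus HE 1 wkpp they were -0.17 to 0.23 for LIPE, -0.10 to 0.34 for MGLL and -0.07 to 0.71 for ABHD6, and for LE 16 wkpp minus HE 16 wkpp -0.43 to 0.58 for LIPE and -0.56 to 0.04 for MGLL. For the difference between the diets they were -0.41 to 0.12 for PNPLA2, -0.54 to 0.54 for LIPE, -0.19 to 0.66 for ABHD5, -0.61 to 0.32 for ABHD6 and -0.90 to 0.72 for G0S2.

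The lists of partners and other hydrolases were put through the same alternatives, added after seeing the data: partners called between -4 wkpp and HE 1 wkpp went from 3 to 1 without the filter, to 7 on exonic counts alone and to 5 at an adjusted p below 0.05 in both. AQP7 lost its call against HE 1 wkpp under total counts (whole gene adjusted p = 0.0104) and, with CIDEA, without the filter (0.0123 each). CIDEA lost its call against LE 1 wkpp under total-count and upper-quartile scaling (0.0109 and 0.0107), and PNPLA6 lost its call without the filter (0.0125). Over all genes, calls between -4 wkpp and HE 1 wkpp went from 189 to 314 under total counts, 69 without the filter and 1064 with all 15 libraries in one fit. Those between -4 wkpp and LE 1 wkpp went from 4 to 0 under either other scaling, 10 with limma-trend and 24 with all 15 libraries. No paired analysis was possible because the recovered libraries carry no replicate number. The shallow HE libraries, with as few as 13 exonic reads of ABHD5 and 20 of ABHD6, limit both genes.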
